A study of Mus musculus with 4 samples.

Results

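Interferon-inducible GTPases were measured in splenocytes of lymphoma-bearing mice by Drop-seq, a droplet method that counts the 3′ ends of transcripts in single cells by unique molecular identifiers (UMIs). The 10 genes described were taken by name: the guanylate-binding proteins (GBPs) Gbp2, Gbp3, Gbp4, Gbp5 and Gbp7, and the immunity-related GTPases (IRGs) Iigp1, Ifi47, Igtp, Irgm1 and Irgm2. All 10 were found among the 17252 genes of the count table. BALB/c mice, age-matched young adult females by the study's general methods, received 10000 BCL1 cells, a transplantable mouse B cell lymphoma passaged in this strain, on day 0, and every spleen was harvested on day 13. The 4 groups were the combination of anti-CD20 (day 4) and anti-CD27 (days 5 to 8), anti-CD27 alone, anti-CD20 alone and isotype control. These days follow the sample labels, and the study's single-cell methods number the antibody days earlier with the same harvest day, so the time from antibody to harvest is uncertain. Anti-CD20 is a monoclonal antibody that targets B cells, and anti-CD27 is an agonist antibody against a co-stimulatory receptor of T and NK cells. Each group was 1 library, and the number of mice behind it was not stated, so there was no replicate error and no test between treatments. All intervals given are 95% intervals of counting error alone. Cell columns prefixed PBS were read as isotype control by elimination, because the remaining 3 prefixes match the remaining 3 groups.

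GBPs and IRGs are GTPases that cells make after exposure to interferon, above all to interferon-γ. GBPs assemble on the vacuoles and surfaces of intracellular microbes and promote inflammasome signalling. Effector IRGs load onto pathogen vacuoles, while regulatory IRGs, the Irgm group, sit on the cell's own membranes and hold the effectors inactive there. In macrophages of mice these genes are a standard readout of interferon-γ, which acts on promoters through GAS elements and, through IRF1 and other interferon-regulated factors, through interferon-stimulated response elements (ISREs).

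By the GENCODE vM21 annotation of GRCm38, the build the study names as mm10, 4 of the GBP genes lie side by side on chromosome 3: Gbp5 at chr3:142493978-142522344, Gbp7 at chr3:142530342-142550149, Gbp3 at chr3:142560026-142573209 and Gbp2 at chr3:142620602-142638008. Gbp4 lies at chr5:105115767-105139586. Of the IRG genes, Irgm1 is at chr11:48861968-48871683, Ifi47 at chr11:49076587-49096974, Igtp at chr11:58199556-58207591 and Irgm2 at chr11:58199618-58222782. The annotated spans of Igtp and Irgm2 overlap on the same strand, as do those of Gbp4 with Gbp8 and Gbp9, Gbp7 with Gm43802, and Ifi47 with Olfr56, so reads in the shared stretches could be credited to either gene. Among all 50-base words of the last 500 bases of each gene's longest coding transcript, at most 6.43% were found in transcripts of another gene. That maximum was for Gbp4, whose words were shared with Gbp6 and Gm43302.

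Because these genes are known as interferon targets, the promoters in RefSeq (GRCm38.p6, 250 bases before to 50 bases after the start site) were searched on both strands for an ISRE core, GAAANNGAAA, and for a GAS core, TTCNNNGAA. Promoters of 8 of the 10 genes were used. An ISRE core was found for 7 of the 8, against 3.44% of the 32851 promoters in the table, and a GAS core for 4 of the 8, against 8.30% of them. The 60 bases around each ISRE core are shown, read 5′ to 3′ along the gene, with the core in capitals:
Gbp2, chr3:142620579-142620638, plus strand: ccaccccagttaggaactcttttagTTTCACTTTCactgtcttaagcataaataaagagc
Gbp3, chr3:142559977-142560036, plus strand: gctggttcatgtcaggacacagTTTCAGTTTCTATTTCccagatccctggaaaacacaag
Gbp5, chr3:142496744-142496803, plus strand: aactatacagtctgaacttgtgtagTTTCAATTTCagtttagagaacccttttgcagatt
Gbp7, chr3:142530258-142530317, plus strand: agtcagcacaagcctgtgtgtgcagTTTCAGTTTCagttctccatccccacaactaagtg
Igtp, chr11:58199497-58199556, plus strand: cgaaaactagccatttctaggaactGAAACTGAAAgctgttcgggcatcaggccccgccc
Irgm2, chr11:58214888-58214947, plus strand: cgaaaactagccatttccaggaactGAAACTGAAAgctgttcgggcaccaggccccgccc
Irgm1, chr11:48871413-48871472, minus strand: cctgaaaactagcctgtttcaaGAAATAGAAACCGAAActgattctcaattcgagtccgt
The core ran in the reverse direction in the 4 GBP promoters, where it reads TTTCNNTTTC, and forward in the 3 IRG promoters. Gbp3 and Irgm1 each held 2 overlapping cores. A second Gbp3 start site and the Ifi47 promoter held neither motif in this window. For Irgm2 and the second Gbp3 start site, no GENCODE transcript start of the gene was found near the RefSeq start site. The Irgm2 stretch shown lies inside the annotated span of that gene. The letters describe the sequence, and no binding was measured.

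After exclusion of barcodes with fewer than 300 or more than 3000 detected genes, 1770 of 3198 barcodes remained: 432 cells from the combination, 497 from anti-CD27, 501 from anti-CD20 and 340 from isotype control. The libraries held 440710 to 939565 UMIs, the fewest in isotype control, and a median of 1031 to 1395.5 UMIs per cell. No kept barcode sequence occurred in more than 1 library.

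The GTPases were far more abundant in both libraries from mice given anti-CD27 than in both libraries without it. Their summed level, in UMIs scaled to a library total of 1000000 (CPM), was 4372 CPM in the combination, 2898 in anti-CD27, 723 in anti-CD20 and 749 in isotype control (4011, 2634, 679 and 330 UMIs in all). The combination was 6.05-fold (5.58 to 6.57) above anti-CD20, and anti-CD27 was 3.87-fold (3.45 to 4.35) above isotype control. Anti-CD20 stood at 0.965-fold (0.845 to 1.10) of isotype control, an interval that includes no difference, and the combination was 1.51-fold (1.44 to 1.59) above anti-CD27. Each of the 10 genes was at least 2-fold higher in the combination than in anti-CD20, a difference reached by 9.57% of the 7572 genes with at least 30 UMIs in that pair. The same held for 10 of 10 genes in anti-CD27 over isotype control, against 7.46% of 6612 genes. In anti-CD20 over isotype control 0 of 10 were at least 2-fold higher (3.45% of all genes) and 1 was at least 2-fold lower (3.09%). In the combination over anti-CD27 1 of 10 was at least 2-fold higher (3.27%). The genes were chosen with earlier results of these data known, so the shares over all genes are background and not a test.

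**Figure D1:**
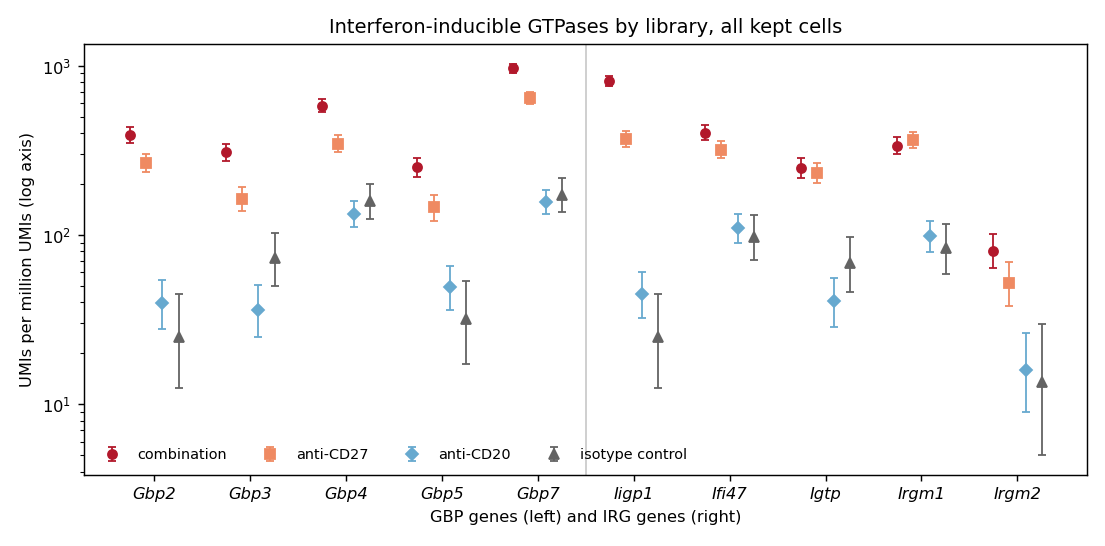
Level of each GTPase gene in the 4 libraries, in CPM over all kept cells on a log axis. Points are 1 library each and bars are exact Poisson 95% intervals of the count. For every gene the combination and anti-CD27 points lie above the anti-CD20 and isotype control points.

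Among the GBPs, Gbp2, which in mice is recruited to pathogen vacuoles, had the highest ratios of the 5 GBPs listed, with intervals that overlapped those of Gbp3, Gbp5 and Gbp7 for the combination over anti-CD20 and that of Gbp5 for anti-CD27 over isotype control. It was detected at 389 CPM in the combination, 266 in anti-CD27, 39.4 in anti-CD20 and 25.0 in isotype control. The combination was 9.88-fold (7.03 to 14.3) above anti-CD20, and anti-CD27 was 10.7-fold (5.86 to 21.7) above isotype control, and the intervals with and without anti-CD20 overlapped for this gene. In the combination 36.1% of cells held a Gbp2 UMI, against 5.39% in anti-CD20.

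Gbp3 differed more in the presence of anti-CD20 than in its absence. Its levels were 308 CPM in the combination, 163 in anti-CD27, 36.2 in anti-CD20 and 72.6 in isotype control. The combination was 8.52-fold (5.96 to 12.6) above anti-CD20, whereas anti-CD27 was 2.24-fold (1.52 to 3.40) above isotype control, and the intervals of the 2 ratios did not overlap. The same was true of Gbp4 and Gbp7, and the differences between ratios were not tested. Gbp3 was also the 1 gene at least 2-fold lower in anti-CD20 than in isotype control (0.498-fold, 0.298 to 0.834). In that comparison the intervals of 2 genes lay below 1, those of Gbp3 and of Igtp (40.4 CPM in anti-CD20 and 68.1 in isotype control).

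Gbp4 had 580 CPM in the combination, 347 in anti-CD27, 133 in anti-CD20 and 159 in isotype control. Its ratios were 4.36-fold (3.58 to 5.34) for the combination over anti-CD20 and 2.18-fold (1.68 to 2.87) for anti-CD27 over isotype control. The second ratio was the smallest of the 10 genes in that comparison. Gbp5, which in mice promotes inflammasome activation, had 251, 145, 49.0 and 31.8 CPM in the combination, anti-CD27, anti-CD20 and isotype control. Its ratios, 5.12-fold (3.72 to 7.19) and 4.57-fold (2.63 to 8.59), had overlapping intervals. Gbp7, which in mice takes part in assembly of the phagocyte oxidase, had 962, 641, 156 and 172 CPM in the same order. The combination was 6.15-fold (5.16 to 7.38) above anti-CD20 and anti-CD27 was 3.72-fold (2.92 to 4.79) above isotype control. A Gbp7 UMI was present in 57.6% of combination cells and 44.1% of anti-CD27 cells, against 16.0% of anti-CD20 cells and 12.9% of isotype control cells.

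Of the IRG effectors, Iigp1 (Irga6), which loads onto pathogen vacuoles, had the highest ratios of the 10 genes, with intervals that overlapped that of Gbp2 in both comparisons, and those of Gbp5 and Irgm2 for anti-CD27 over isotype control. Its levels were 813 CPM in the combination, 369 in anti-CD27, 44.7 in anti-CD20 and 25.0 in isotype control. The combination was 18.2-fold (13.3 to 25.5) above anti-CD20 and anti-CD27 was 14.8-fold (8.15 to 29.9) above isotype control. It was also the 1 gene at least 2-fold higher in the combination than in anti-CD27 (2.21-fold, 1.94 to 2.52). Ifi47 (Irgd), a further effector, had 402, 319, 110 and 97.6 CPM in the combination, anti-CD27, anti-CD20 and isotype control. Its ratios were 3.67-fold (2.94 to 4.61) and 3.27-fold (2.37 to 4.62).

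Of the regulatory IRGs, Irgm1 and Igtp differed little between the combination and anti-CD27. Irgm1 had 337 CPM in the combination and 363 in anti-CD27, and 97.9 in anti-CD20 and 84.0 in isotype control. The combination was 0.928-fold (0.792 to 1.09) of anti-CD27 for this gene, 3.44-fold (2.72 to 4.39) above anti-CD20, and anti-CD27 was 4.32-fold (3.07 to 6.25) above isotype control. Igtp (Irgm3) had 249, 233, 40.4 and 68.1 CPM in the combination, anti-CD27, anti-CD20 and isotype control, with the combination at 1.07-fold (0.880 to 1.29) of anti-CD27. For these genes the intervals of that ratio include no difference, whereas for the other 8 they lie above 1. Irgm2, a low-count gene with 74, 47, 15 and 6 UMIs in the 4 libraries in that order, was 5.05-fold (2.87 to 9.48) higher in the combination than in anti-CD20 and 3.80-fold (1.62 to 10.9) higher in anti-CD27 than in isotype control.

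**Figure D2:**
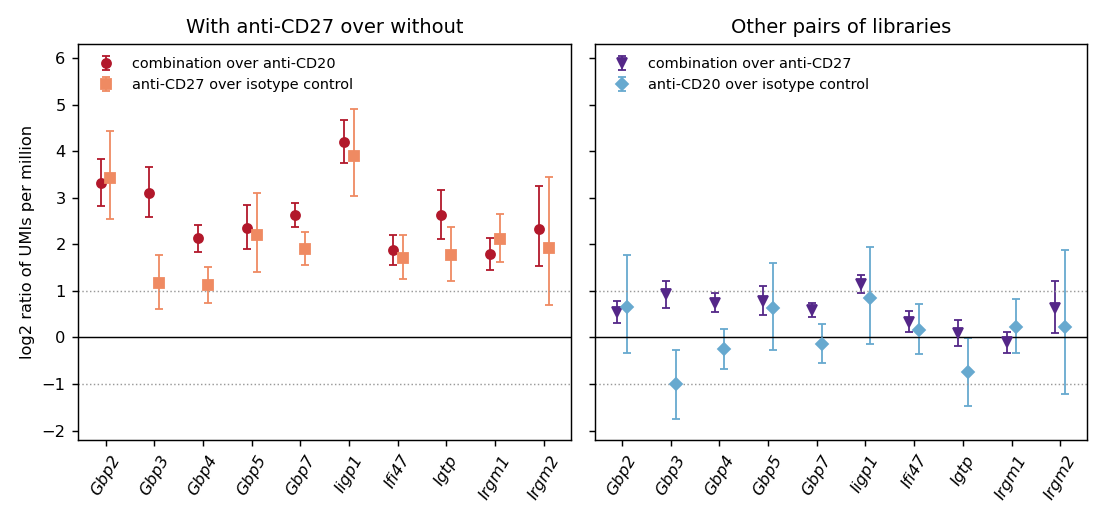
Log2 ratio of CPM for each GTPase gene, with exact conditional 95% intervals, for the comparisons with anti-CD27 over those without it (left) and for the other pairs of libraries (right). Dotted lines mark 2-fold. All 20 ratios on the left lie above the upper dotted line, and Iigp1 is highest in each of the 4 comparisons.

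The higher levels were spread over many cells. At least 1 GTPase UMI was present in 89.8% of combination cells, 83.7% of anti-CD27 cells, 50.7% of anti-CD20 cells and 42.1% of isotype control cells. When cells were thinned to 400 UMIs, so that depth was equal, which left out 3, 4, 5 and 5 shallower cells, these shares were 68.5%, 60.4%, 26.0% and 21.2% in the same order. Erythroid-like cells, which are deeper, held a GTPase UMI in 91.7% of 12 combination cells and 92.9% of 14 anti-CD27 cells, at medians of 3386 and 3065.5 UMIs per cell, so these shares are not read as shares of cells expressing the genes. The number of family members found together in 1 cell differed more. At 800 UMIs per cell, which left out 98, 146, 119 and 125 shallower cells, at least 3 of the 10 genes were detected in 38.3% of combination cells, 31.1% of anti-CD27 cells, 4.71% of anti-CD20 cells and 4.19% of isotype control cells. At least 6 were detected in 8.68% and 3.13% of combination and anti-CD27 cells, against 1 of 382 anti-CD20 cells and 0 of 215 isotype control cells, which allows a share of up to 1.70% (exact binomial). Without thinning the shares with at least 6 genes were 24.1%, 12.9%, 1.40% and 0.588%. Without thinning, all 10 were detected in 3 combination cells.

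**Figure D3:**
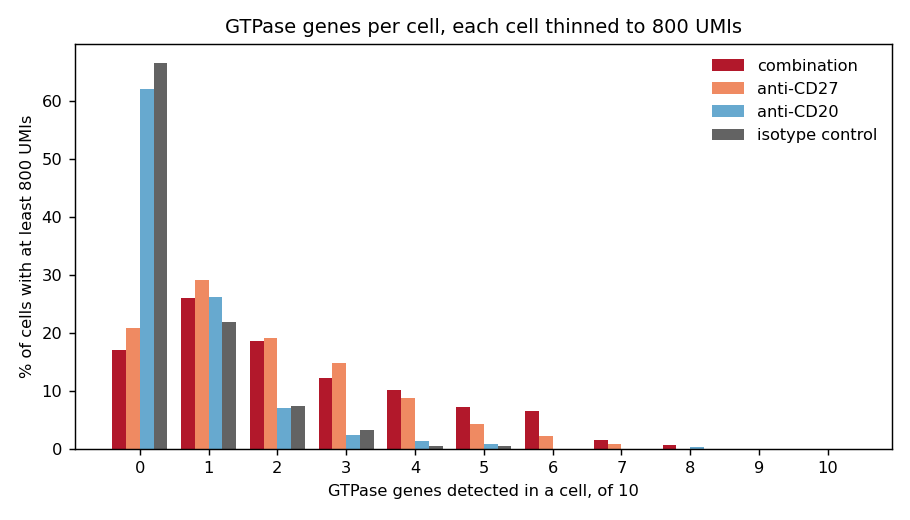
Share of cells by the number of the 10 GTPase genes detected, in percent of cells with at least 800 UMIs, each thinned to 800 UMIs. Bars are the 4 libraries. Cells with at least 3 genes make up 38.3% and 31.1% of the combination and anti-CD27 libraries, against 4.71% and 4.19% of the anti-CD20 and isotype control libraries.

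Cells were clustered without the GTPases and the other interferon genes listed, and clusters were named from marker genes. The libraries also differed in the cells recovered: macrophage/monocyte-like cells were 20.4% of combination cells and 8.25% of anti-CD27 cells, against 4.39% of anti-CD20 cells and 3.82% of isotype control cells, and B-like cells were 0.694%, 37.6%, 21.2% and 52.1%. Each library was then weighted to the class mixture of all cells, by share of UMIs. Only named classes with at least 10 cells in both libraries of a pair were used. The combination was 4.07-fold (3.63 to 4.56) above anti-CD20 over 4 classes: macrophage/monocyte-like, T-like, dendritic-like and NK-like. B-like, germinal center B-like, neutrophil-like, effector CD8 T-like and unnamed cells were among those left out. The anti-CD20 level was then 1102 CPM, against 723 over all cells of that library. This ratio thus describes these classes and not the whole mixture of cells. Anti-CD27 was 3.75-fold (3.23 to 4.35) above isotype control over 5 classes: macrophage/monocyte-like, T-like, dendritic-like, B-like and germinal center B-like. Over the alternatives tried, which changed the cells kept or the way classes were drawn, these ratios ranged from 1.72 to 2.44 and from 1.31 to 2.05 on the log2 scale. The ends of the first range came from leaving out cluster 8 and from dropping the upper limit on genes, and the lower end of the second from a lower limit of 500 genes.

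Macrophage/monocyte-like cells, the phagocytes in which these GTPases are best known, differed widely between libraries with and without anti-CD27. Their summed GTPase level was 6317 CPM in the combination (88 cells), 4871 in anti-CD27 (41 cells), 474 in anti-CD20 (22 cells) and 495 in isotype control (13 cells). The combination was 13.3-fold (8.85 to 21.1) above anti-CD20, with 9 of the 9 members that had at least 30 UMIs higher by at least 2-fold (18.9% of all genes in these cells). Anti-CD27 was 9.84-fold (4.74 to 24.6) above isotype control, with 7 of 8 (18.5%), and this ratio rests on 7 isotype control UMIs. The 10 members together had 23 UMIs in anti-CD20 and 7 in isotype control in these cells. A member thus reached 30 UMIs only with the counts of the combination or anti-CD27, so these counts of members are not support. Different cells filled the class in different libraries. Cluster 8, led by the interferon-γ-induced chemokine Cxcl9, gave 46 of the 88 combination cells and 22 of the 41 anti-CD27 cells, against 2 of the 22 anti-CD20 cells and 1 of the 13 isotype control cells. In cluster 14, the C1q-positive macrophage-like cells, where cell numbers were similar, the level was 7136 CPM in 15 combination cells against 499 in 12 anti-CD20 cells (14.3-fold, 8.33 to 26.6). A single cell held 22.7% of these combination UMIs, and the anti-CD20 level rests on 14 UMIs. The 4 anti-CD27 cells of this cluster had 2303 CPM. With a mean over cells in place of summed UMIs the log2 ratio of the combination over anti-CD20 was 2.64 in place of 3.74 for the whole class.

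Iigp1 was higher in this class than in all cells together in both libraries from mice given anti-CD27. It reached 1661 CPM in the combination (381 UMIs) and 767 in anti-CD27 (72 UMIs), against 103 in anti-CD20 (5 UMIs) and 70.7 in isotype control (1 UMI). Gbp2 was counted at 122 and 35 UMIs in the combination and anti-CD27, against 0 in both anti-CD20 and isotype control, and was at least 8.60-fold higher in the combination than in anti-CD20 by a floor of 3 counts in the class. Between the combination and anti-CD27, 6 of the 10 genes were higher in the combination. Irgm1 had the lowest ratio, with 405 CPM in the combination and 565 in anti-CD27 (0.718-fold, 0.507 to 1.03).

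Neutrophil-like cells were also high, at 5076 CPM in the combination (71 cells) and 3312 in anti-CD27 (50 cells). Anti-CD20 and isotype control held 9 and 8 such cells with 4 and 8 GTPase UMIs, too few for a ratio. The class was split. Cluster 6, marked by Cxcr2 and Retnlg, genes of mature neutrophils, had 11788 CPM in the combination and 7718 in anti-CD27, the highest of any cluster with at least 10 cells in a library. Cluster 11, marked by the granule genes Camp and Ltf of immature neutrophils, had 2053 and 1525, and within the combination cluster 6 was 5.74-fold above cluster 11, with 5.06-fold in anti-CD27. Depth differed between them, with median totals of 956 UMIs per cell in cluster 6 and 3077 in cluster 11.

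T-like cells had the highest level of the named classes with at least 10 cells in the libraries without anti-CD27. Their summed level was 4102 CPM in the combination, 3026 in anti-CD27, 1807 in anti-CD20 and 2134 in isotype control (121, 86, 166 and 62 cells). The combination was 2.27-fold (1.99 to 2.60) above anti-CD20, with 7 of 8 members at least 2-fold higher (2.88% of all genes). Anti-CD27 was 1.42-fold (1.16 to 1.74) above isotype control, with 2 of 6 (6.03%). When each cell was classed by its own markers these log2 ratios were 0.82 and 0.20 in place of 1.18 and 0.50, and the interval of the second, −0.07 to 0.48, then included no difference. T-like cells held 14.6% of all GTPase UMIs in the combination and 11.6% in anti-CD27, against 53.0% in anti-CD20 and 43.3% in isotype control. Macrophage/monocyte-like, neutrophil-like and cluster 7 cells held 36.1%, 19.8% and 16.2% of the combination counts. Cluster 7, led by Mcpt8, Igfbp7, Car1 and Cpa3, did not meet the rule for a name and was left unnamed. Mcpt8 and Cpa3 are on the marker list of mast cells and basophils, and Car1 is on that of erythroid cells. It had 6242, 5079, 508 and 819 CPM in the combination, anti-CD27, anti-CD20 and isotype control (36, 21, 15 and 3 cells).

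Effector CD8 T-like cells, which carry Gzmb, Nkg7 and Ccl5, were low. They had 1723 CPM in the combination and 1664 in anti-CD27 (58 and 61 cells), a ratio of 1.04-fold (0.865 to 1.24), and 1813 and 852 in 6 anti-CD20 and 4 isotype control cells. Within the combination they stood at 0.420-fold of the other T-like cells (log2 −1.25, −1.47 to −1.04), and within anti-CD27 at 0.550-fold (log2 −0.86, −1.11 to −0.62). Their median depth was greater, 1957 and 1635 UMIs per cell against 927 and 906 in T-like cells. The Ifng transcript itself, the interferon-γ ligand, was counted 44 times in the whole combination library and 23 times in anti-CD27, against 3 times in anti-CD20 and 1 time in isotype control. These counts are over all classes. They came from 17 combination and 11 anti-CD27 cells, and a single cell held 31.8% and 43.5% of them.

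B-like cells could be compared between anti-CD27 and isotype control, where 187 and 177 were recovered, and the combination held 3. Which of them were BCL1 cells was not determined. Their summed level was 2722 CPM in anti-CD27, 645 in anti-CD20 and 587 in isotype control. Anti-CD27 was 4.63-fold (3.79 to 5.71) above isotype control, with 7 of 8 members at least 2-fold higher (3.48% of all genes). No member had more than 23 UMIs in isotype control B-like cells, so each reached 30 only with the anti-CD27 counts. Iigp1 was counted 94 times in anti-CD27 B-like cells, 0 times in anti-CD20 and 1 time in isotype control B-like cells, a ratio of 83.6-fold in anti-CD27 over isotype control with an interval of 14.6 to 3337. Irgm1 had 472 CPM in anti-CD27 and 118 in isotype control B-like cells. Germinal center B-like cells had 2353 CPM in anti-CD27 (10 cells, with 29.9% of the GTPase UMIs in 1 cell), 199 in anti-CD20 (122 cells) and 163 in isotype control (48 cells).

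Dendritic-like cells had 2298 CPM in the combination, 2668 in anti-CD27, 440 in anti-CD20 and 185 in isotype control (23, 18, 12 and 12 cells). The combination was 5.23-fold (2.82 to 10.7) above anti-CD20 and anti-CD27 was 14.4-fold (5.98 to 45.5) above isotype control, the second resting on 5 isotype control UMIs. A single cell held 30.6% of the dendritic-like GTPase UMIs in the combination and 32.0% in anti-CD27. NK-like cells had 1414 CPM in 12 combination cells and 754 in 27 anti-CD20 cells (1.88-fold, 1.10 to 3.24).

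**Figure D4:**
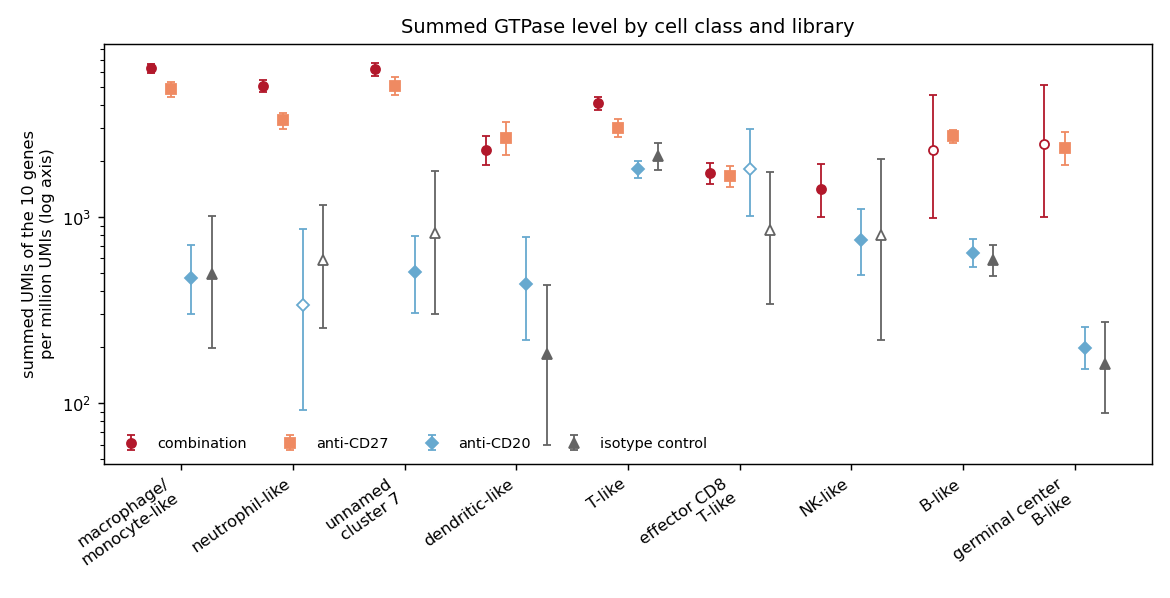
Summed UMIs of the 10 GTPase genes in CPM, on a log axis, by cell class and library, with exact Poisson 95% intervals. Open symbols are classes with fewer than 10 cells in a library and values from fewer than 3 cells are not drawn. Macrophage/monocyte-like cells span 6317 CPM in the combination to 474 in anti-CD20, and T-like cells 4102 to 1807.

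The make-up of the family differed between cell types. Levels of different genes were not compared, since UMI counts depend on how well each 3′ end is captured, but the share of 1 gene in the summed counts can be set side by side between cells. Iigp1 made up 26.3% (24.0 to 28.6) of the GTPase UMIs of macrophage/monocyte-like cells in the combination and 15.8% (12.5 to 19.4) in anti-CD27. Its share was not highest there: in unnamed cluster 7 it was 34.9% (31.2 to 38.7) and 27.0% (22.3 to 32.0). In erythroid-like cells Iigp1 made up 28.7% (19.5 to 39.4) and 7.89% (2.95 to 16.4), and a single cell held 48.3% of the erythroid-like GTPase UMIs in the combination. In neutrophil-like cells it made up 2.14% (1.25 to 3.40) and 1.48% (0.544 to 3.19), and in effector CD8 T-like cells 2.36% (0.872 to 5.07) and 2.86% (1.16 to 5.80). Neutrophil-like cells were thus high in the family and low in Iigp1. Gbp2 ran the other way, at 16.8% and 20.9% of the GTPase UMIs of neutrophil-like cells in the combination and anti-CD27, against 8.42% and 7.66% in macrophage/monocyte-like cells. In T-like cells Iigp1 made up 11.1%, 10.1%, 8.33% and 5.59% in the combination, anti-CD27, anti-CD20 and isotype control, and in B-like cells 15.8% in anti-CD27.

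**Figure D5:**
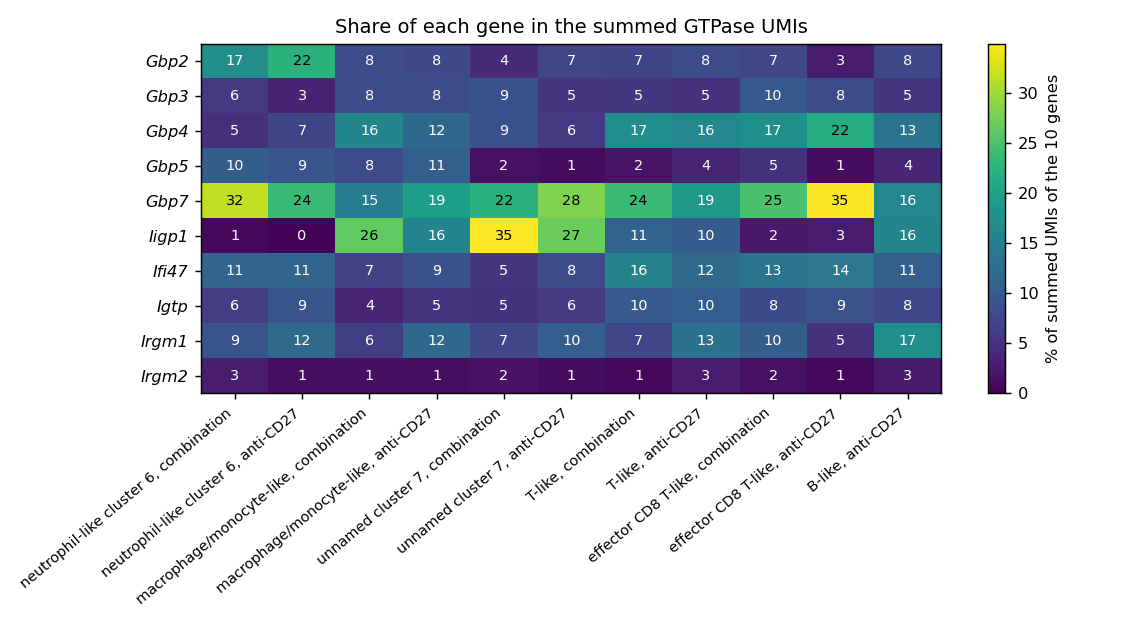
Share of each gene in the summed GTPase UMIs, in percent, for cell classes (columns) of the combination and anti-CD27 libraries. In the combination, Iigp1 takes 26.3% of the macrophage/monocyte-like counts and 0.697% of those of neutrophil-like cluster 6, where Gbp2 takes 17.2%.

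RNA freed from other cells is captured in every droplet. Barcodes with fewer than 300 genes, which include droplets without an intact cell, had a summed GTPase level of 2380 CPM in the combination, 1568 in anti-CD27, 268 in anti-CD20 and 497 in isotype control. Of the classes and clusters with at least 10 cells in the library, the combination's effector CD8 T-like, NK-like, dendritic-like and erythroid-like cells and cluster 11 lay below the first of these values, and in anti-CD27 cluster 11 lay below the second. Macrophage/monocyte-like and T-like cells of both libraries, and B-like cells of anti-CD27, lay above the value of their own library. In the same barcodes Iigp1 was 14.9% (11.8 to 18.5) and 15.7% (11.3 to 21.1) of the GTPase UMIs in the combination and anti-CD27, above its share in neutrophil-like and effector CD8 T-like cells and close to that in B-like cells of anti-CD27. These barcodes were not all droplets of little RNA: the 294 of anti-CD20 held 249778 UMIs. Their level is thus not a measure of free RNA alone. The part of free RNA in the levels of single classes was not tested.

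Other genes of the interferon system were read from lists in the same way. Of 15 further interferon-inducible GTPases 12 were in the table. Of those with at least 30 UMIs in a pair, 8 of 10 were at least 2-fold higher in the combination than in anti-CD20, and 5 of 8 in anti-CD27 than in isotype control. The share over all genes was 9.57% and 7.46%. Gbp2b, which encodes mouse Gbp1, had 771, 410, 58.5 and 38.6 CPM in the combination, anti-CD27, anti-CD20 and isotype control (log2 ratios 3.72 and 3.41). Gbp9 and Mx1 differed less, at 0.97 and 0.15 for Gbp9, and at 0.78 and −0.82 for Mx1, an antiviral GTPase of the dynamin family. The Mx1 values rest on 37, 21, 22 and 18 UMIs in the same order of libraries, and a single cell held 33.3% of those in isotype control.

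Among 10 genes of the interferon-γ ligand, receptor and signal, 4 of 10 and 4 of 9 were at least 2-fold higher in the combination over anti-CD20 and in anti-CD27 over isotype control. Irf1, an interferon-induced transcription factor, had 377, 281, 114 and 118 CPM in the combination, anti-CD27, anti-CD20 and isotype control (log2 ratios 1.73 and 1.25). The receptor gene Ifngr1 differed little, at 0.61 and 0.51. Irf8 was lower, at −0.49 and −0.87, as was Ciita, the activator of MHC class II genes, at −1.51 and −1.07; both are expressed by B cells, whose share of cells differed between the libraries, and the part of that share in these values was not tested. Of 14 other interferon-γ targets 10 of 14 and 7 of 13 were at least 2-fold higher and 1 lower in each pair, among them the chemokine genes Cxcl9 (log2 4.99 and 4.96) and Cxcl10 (5.57 and 3.33). Of 21 antiviral genes usually assigned to type I interferon, 16 of 21 and 10 of 20 were at least 2-fold higher, among them Isg15 (2.53 and 1.65). The type I receptor genes Ifnar1 and Ifnar2 were not. Over all genes, 9.57% were at least 2-fold higher in the combination over anti-CD20 and 7.46% in anti-CD27 over isotype control. In anti-CD20 over isotype control 0 genes of these 5 lists with at least 30 UMIs were at least 2-fold higher or lower. Over all genes 3.45% were higher and 3.09% lower in that pair, so a count of 0 in these lists is near the background. The median log2 ratio of the 10 GTPases, with 10 CPM added, was 2.25 and 1.74, beside −0.06 and −0.09 over all genes with at least 10 UMIs in each pair.

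Across 17 units of class and library with at least 20 cells, genes whose level was among the most like the summed GTPases, of 5373 ranked, were Xaf1 (Pearson r 0.94), Irf1 (0.94), Zbp1 (0.93), B2m (0.91), Tap1 (0.89), Slfn2 (0.88), Gbp2b (0.86), Pstpip1 (0.85) and Oas1a (0.85). The 45 pairs of members correlated at 0.53 to 0.95 with a median of 0.74. Units of 1 library share that library, and the values are a description.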

How the data were processed

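Drop-seq libraries were made from Liberase-digested spleens, 1 per treatment. The deposited table held raw UMI counts per gene and barcode, which the authors made with bcl2fastq, Drop-seq tools and STAR 2.5.0a on mm10, per the labels and the submitters' processing notes. All cell columns were assigned to a library, the PBS columns to isotype control by elimination. Barcodes with 300 to 3000 detected genes were kept. CPM (UMIs scaled to a total of 1000000) were computed from the deposited counts summed over cells of a library or class. Ratios carry exact conditional 95% intervals, levels exact Poisson and shares exact Clopper-Pearson intervals. Ratios at the pooled class mixture are the exception, with approximate intervals that are symmetric on the log2 scale. These cover counting error alone, cells are not replicates, and with 1 library per treatment no test was made. A ratio between libraries needed 10 cells of the class in each. The share of all genes with at least 30 UMIs in a pair that differed at least 2-fold is given as background. A gene low in 1 library of a pair can reach 30 UMIs through the other library alone, so counts of members are descriptions.

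For clustering, each cell's counts were brought to a total of 10000 and logged. Without the GTPase and interferon lists, the 2000 genes of highest variability gave 30 principal components, 15 neighbours (scikit-learn 1.9.0) and Leiden clusters at resolution 1 (leidenalg 0.10.2). A cluster was named for the class with most markers among its 30 leading genes by fold, at least 3. NK-like clusters had Cd3 genes in under 30% of cells and effector CD8 T-like clusters Cd8 genes in at least 20%. A cluster stayed unnamed where another class led its top 10 genes. This naming rule was set after the clusters were seen, so class shares may differ from the study's. Scrublet, run in scanpy 1.11.5, called 16 doublets, which were kept, and removed as an alternative. All 10 genes are named. Other genes came from lists of the pathway, and genes of like pattern are the 10 with the highest Pearson correlation of log2(CPM + 50) with the summed GTPases, among genes with at least 100 UMIs, over units of at least 20 cells. A gene among them is not reported here. Members and lists were chosen with earlier results of these data known. Intervals came from scipy 1.17.1 (numpy 2.4.6, Python 3.11.15). For trimmed-mean scaling as an alternative, edgeR 4.0.16 in R 4.3.3 was used. Interval code was tested on simulated counts. Alternatives varied the gene limits, doublets, variable genes, resolution, scaling, pseudocount and naming.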

Additional observations from a re-analysis of the deposited data

Results flagged for a closer look

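Barcodes outside the gene limits, used in no comparison of cells, also carried GTPase UMIs above the level of the libraries without anti-CD27. Barcodes with fewer than 300 genes had a summed level of 2380 CPM in the combination (338 barcodes) and 1568 in anti-CD27 (288), against 268 in anti-CD20 (294) and 497 in isotype control (457). Barcodes with more than 3000 genes had 3131 in the combination (30 barcodes) and 2270 in anti-CD27 (14), against 157 in anti-CD20 (5) and 208 in isotype control (2).

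In T-like cells the ratios of 3 genes had opposite signs in the comparisons with and without anti-CD20, and the difference between the comparisons was not tested. For none of these genes did both intervals exclude 0. The log2 ratio of Gbp3 was 2.31 (1.21 to 3.56) in the combination over anti-CD20 and −0.15 (−1.37 to 1.12) in anti-CD27 over isotype control. For Gbp7 the values were 1.09 (0.70 to 1.49) and −0.15 (−0.75 to 0.46). For Gbp5 they were −0.23 (−1.46 to 0.93) and 0.87 (−0.89 to 2.97), and both intervals included 0.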

How the results depend on the processing

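Across 17 ratios and 16 settings, 167 of 189 values lay inside the interval of the reported ratio, and 0 of the ratios whose interval excluded 0 changed direction. The other 22 values follow, all on the log2 scale. For the summed GTPases in all cells, a mean over cells gave 2.37 for the combination over anti-CD20 and 0.15 for anti-CD20 over isotype control, where the reported value was −0.05. Leaving out cluster 8, chosen after seeing the data, gave 2.46 for the combination over anti-CD20 and 0.52 for the combination over anti-CD27, and 0.51 was found for the second with no upper limit on genes. In macrophage/monocyte-like cells the mean over cells gave 2.64 for the combination over anti-CD20. With a pseudocount of 50 CPM the median GTPase ratio was 1.75 for the combination over anti-CD20 and 1.29 for anti-CD27 over isotype control. With cells classed by their own markers, T-like cells gave 0.82 for the combination over anti-CD20 and 0.20 for anti-CD27 over isotype control, and B-like cells gave 2.57 for the second comparison. With 1000 variable genes T-like cells gave 0.80 for anti-CD27 over isotype control. At the pooled class mixture, the combination over anti-CD20 was 2.44 with no upper limit on genes, 2.26 and 2.21 at resolutions 0.5 and 2, 2.28 with the lists among the variable genes, and 1.72 without cluster 8. For anti-CD27 over isotype control it was 1.31 with at least 500 genes, 1.67 without called doublets, 1.63 at resolution 2, 1.66 with the lists among the variable genes and 1.52 with own-marker classes. The causes were not tested. No ratio could be made for effector CD8 T-like and neutrophil-like cells in the comparisons with and without anti-CD27, or for B-like cells in the combination, which had fewer than 10 cells in a library. No paired analysis was possible because each treatment was 1 library, and no replicate could be left out for the same reason. Depth limits the classes with few cells: macrophage/monocyte-like cells of isotype control held 7 GTPase UMIs.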
